A study of Mus musculus with 61 samples.

Results

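Adipose tissue RNA of NZO mice was compared with that of WSB mice. NZO (New Zealand Obese) is a polygenic inbred strain known for obesity and insulin resistance, and WSB is a wild-derived inbred strain known for staying lean. The comparison takes the 16 libraries whose names in the count table begin with one of these strain names, 8 NZO and 8 WSB, out of 61 libraries of 8 strains, and all 18603 genes of 21169 that passed a filter on low counts. Per the labels, every mouse of both strains had received a diet rich in fat and sugar in which fat made up 45 percent, and the labels name no added allele or drug. No group on another diet was used here, and strain is the single labelled difference. The labels name the tissue as adipose and give no sex, age, fat depot, body weight or batch. They also do not say whether the libraries of a strain are separate mice. The p-values thus measure only the spread between libraries of a strain, estimated over all 61 libraries of the 8 strains.

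White fat stores triglyceride in fat cells, which build fatty acids from glucose (de novo lipogenesis), esterify them, and release them again by lipolysis. Fat cells also secrete hormones, among them leptin, which reports the size of the fat store to the brain, and adiponectin, whose level usually runs against fat mass. Around the fat cells lie progenitors, vessels, mesothelium on visceral depots, and immune cells, of which macrophages are the most numerous in obese fat. Macrophages that take up lipid from fat cells are known by Trem2, Spp1 and Gpnmb, and brown or beige fat cells are known by Ucp1, the protein that lets mitochondria make heat. In bulk tissue, fewer cells of a type and less RNA per cell cannot be told apart.

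Total counts ran from 30654654 to 54488515 in NZO (median 36347144) and from 19851580 to 47342145 in WSB (median 39893051). Values below are counts scaled to library size (CPM), adjusted by the trimmed mean of M values, as the lowest, median and highest of a strain's 8 libraries, and fold changes are log2(NZO) minus log2(WSB) ± standard error from edgeR's quasi-likelihood test with Benjamini-Hochberg adjustment, with a threshold of 0.05. CPM is not per length, so it serves to compare a gene between libraries and not genes with one another. Of the genes tested, 4105 share reads with other sequences, which makes their counts less certain, and of those described below with their range these are Mest, Scd1, Irs1, Bcat2, Irgm2, Cwc22, Hif1a, Acot2 and Xist. The fat cell genes Adipoq, Plin1, Fabp4 and Scd1 were read in all 16 libraries, with Scd1 alone holding 2.09% to 6.26% of the counts in NZO and 9.23% to 11.9% in WSB. The median correlation of log2 CPM was 0.970 between NZO libraries, 0.960 between WSB libraries and 0.912 between the strains, and the first principal component of the 16 libraries, with 46.2% of the variance, divided the strains.

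Several libraries stand apart within their strain. Xist, the RNA that coats an inactive X chromosome, was at 450.5 to 668 CPM in NZO replicates 1 to 4 and at 393 to 527 CPM in WSB replicates 1, 3, 4 and 9, against 0.0275 to 3.88 CPM in the other 8, and 4 Y chromosome genes summed to 186 to 230.3 CPM in those other 8 and to at most 2.07 CPM where Xist was high. A set of 6 posterior Hox genes, which mark body position, split the libraries the same way, with sums of 51.2 to 85.5 CPM where Xist was high and 0.278 to 4.99 CPM elsewhere. Sex and depot are not in the labels, and with these transcripts moving together they cannot be told apart. Transcripts of other tissues were high in 7 libraries: testis germ cell genes in NZO replicate 4 (325 CPM summed) and in WSB replicates 6 (67.6 CPM) and 7 (197 CPM), intestinal genes in WSB replicate 7 (294 CPM), neutrophil granule genes in NZO replicate 8 (3636 CPM), hepatocyte genes in WSB replicate 8 (424 CPM), and fast muscle genes in WSB replicates 1 (646 CPM) and 9 (377 CPM). Of these, NZO replicate 4 had high Xist (585 CPM), and its Y chromosome genes summed to only 2.07 CPM. The source of its germ cell transcripts was not tested. Results that rest on the 7 libraries are given with and without them.

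**Figure D1:**
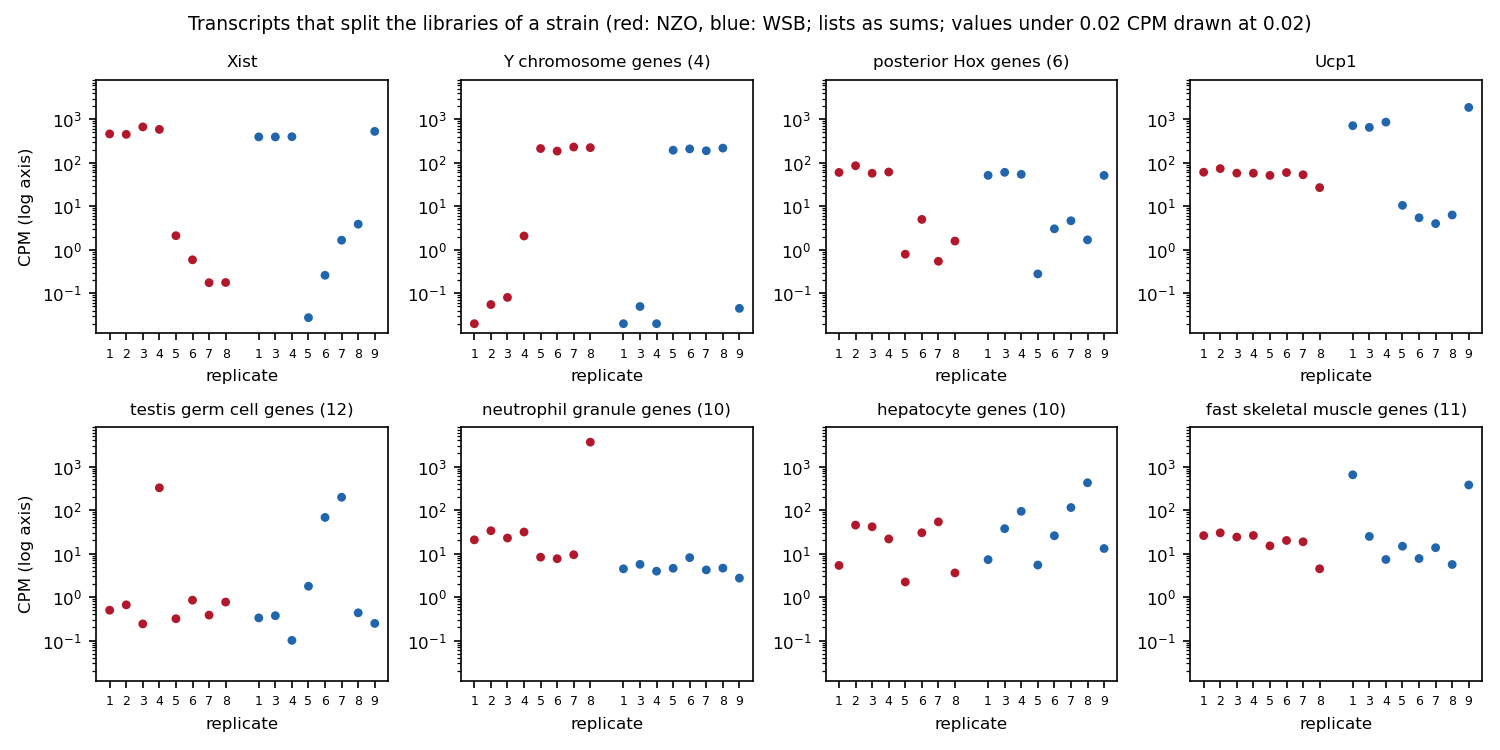
CPM in each of the 8 NZO (red) and 8 WSB (blue) libraries, on a log axis, for Xist and Ucp1 (scaled CPM) and for 6 marker lists (summed, as CPM of the library total). Xist, the Y chromosome genes and the posterior Hox genes split each strain 4 against 4, Ucp1 follows that split in WSB but not in NZO, and the lower panels show single libraries with germ cell, neutrophil, hepatocyte or muscle transcripts.

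NZO and WSB fat differed in most genes. Of the 18603 genes tested, 10402 were called (55.9%), 5203 higher in NZO (28%) and 5199 lower (27.9%), with a median fold change of -0.02 over all genes and a median size of 0.50. At least a 2-fold difference was called in 4515 genes (24.3%), 2555 higher (13.7%) and 1960 lower (10.5%). In 4018 genes (21.6%) the libraries of the strains did not overlap: every NZO library lay above every WSB library in 2177 (11.7%) and below in 1841 (9.9%). These shares are the background for every list below, since a list with about 28% of its members called in each direction is no different from the table as a whole. Leaving out each of the 16 libraries in turn left between 9963 and 10479 genes called, and leaving out all 7 libraries with other tissues' transcripts left 8463. The latter fit keeps only replicates 3, 4 and 5 of WSB.

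The other 6 strains show which of the pair is unusual. Of the genes higher in NZO, NZO lay above the range of the other 6 strain means with WSB inside it in 37.3%, WSB lay below with NZO inside in 19.4%, and both lay outside in opposite directions in 20.4%. Of the genes lower in NZO, the shares were 31.4% for NZO alone, 23.8% for WSB alone and 19.6% for both.

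**Figure D2:**
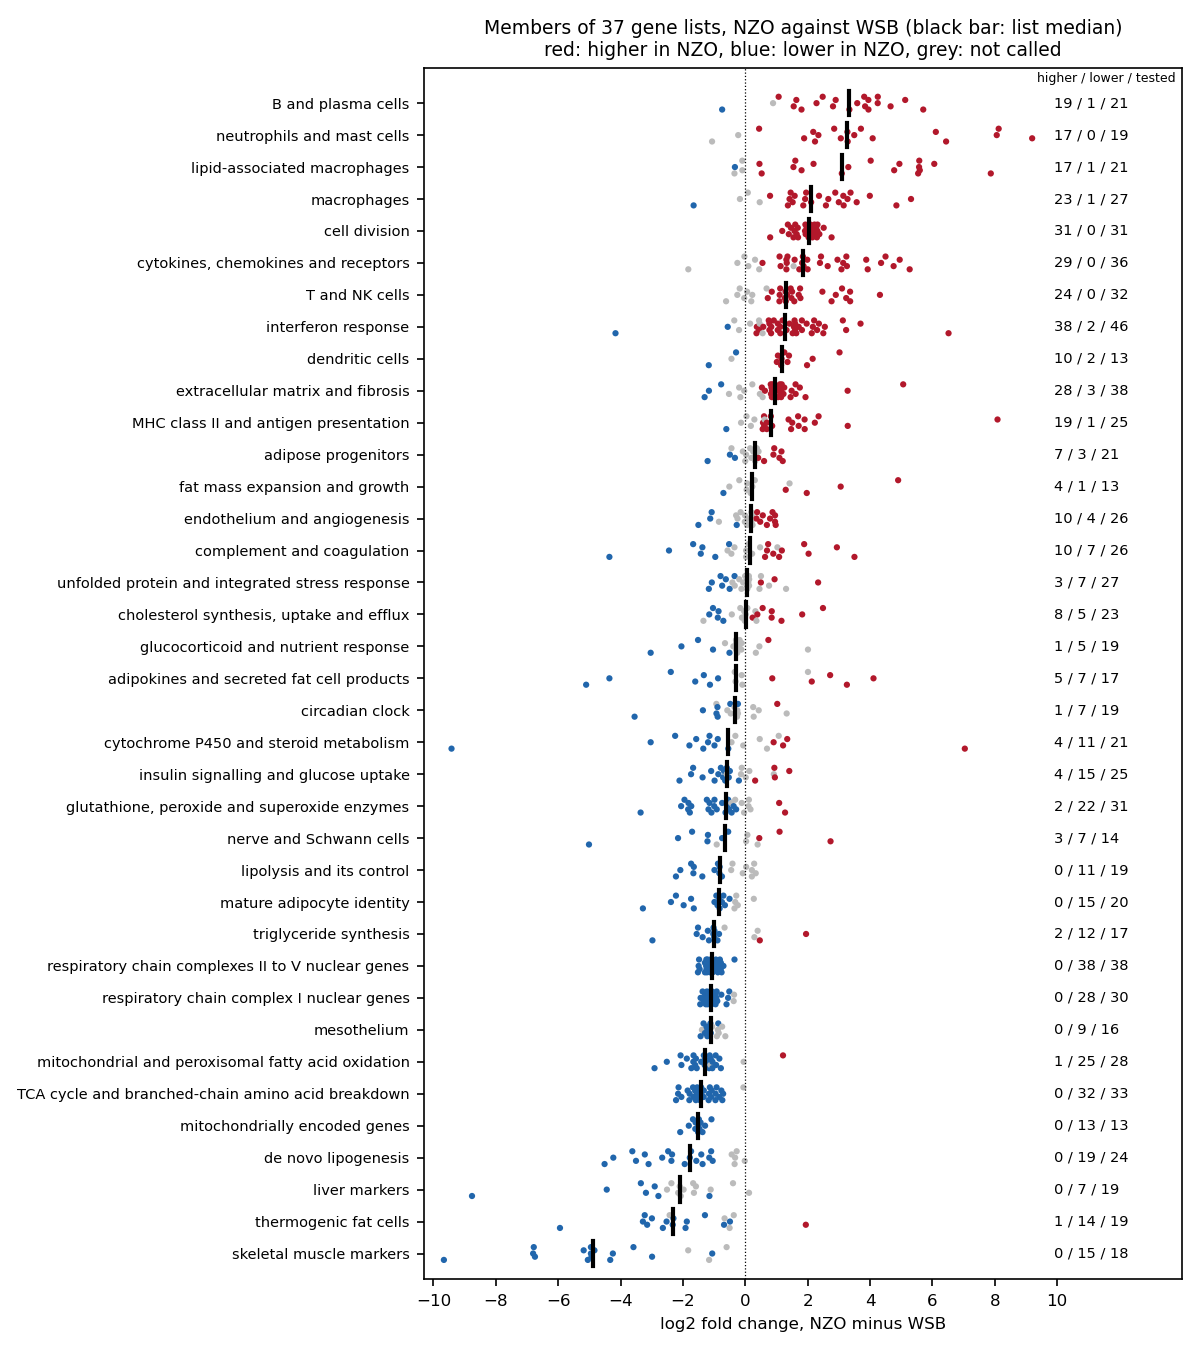
Log2 fold change (NZO minus WSB) of each tested member of 37 gene lists (all but the red blood cell and genital tract lists), ordered by the list median (black bar), with red for members called higher in NZO, blue for members called lower and grey for the rest. Immune, cell division and matrix lists lie to the right, and mitochondrial, lipogenic, fat cell and muscle lists to the left, with the numbers higher, lower and tested at the right edge.

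Secreted fat cell products split between the strains. Of 17 adipokines and related products tested, 5 were higher and 7 lower in NZO, with a median of -0.31 against -0.02 over all genes. Leptin (Lep) ran from 355 to 2719.7 CPM (median 1819) in NZO and from 5.37 to 539 CPM (median 30.1) in WSB. The strains overlapped through the lowest NZO library, replicate 8, and the highest WSB library, replicate 7, while the other libraries lay far apart. Its fold change was 4.11 ± 0.77 (adjusted p = 9e-06) and was 5.40 without WSB replicate 7. The other strain means ran from 62.2 CPM in Cast to 1748 CPM in B6, so NZO lay just above the highest of them and WSB close to Cast. Adiponectin (Adipoq) went the other way, running from 519 to 1620.5 CPM (median 900.1) in NZO and from 2482 to 3316 CPM (median 3000.4) in WSB. No NZO library reached the lowest WSB library, and the fold change was -1.61 ± 0.28 (adjusted p = 2.12e-06).

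Adipsin (Cfd), the complement factor D made by fat cells, ran from 174 to 482 CPM (median 291) in NZO and from 1501 to 10305 CPM (median 5870.4) in WSB. The highest NZO library lay well under the lowest WSB library, with a fold change of -4.36 ± 0.46 (adjusted p = 1.48e-11). Resistin (Retn) ran from 97.3 to 348 CPM (median 212) against from 883 to 1489 CPM (median 1083), again with no overlap (-2.39 ± 0.30, adjusted p = 9.33e-10). Angiotensinogen (Agt), the precursor of the pressor peptide angiotensin, ran from 1.92 to 12.7 CPM (median 5.65) against from 85.1 to 413 CPM (median 116). Every NZO library was below the lowest strain mean of the other 6, 19.3 CPM in AJ, and the fold change was -5.104 ± 0.55 (adjusted p = 2.38e-11). Metrnl, a secreted factor, was higher in NZO (2.13 ± 0.23), while Fgf21, Retnla, Angptl4 and Apoe were not called.

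Mest, an imprinted gene whose level in fat is known to follow the expansion of fat mass, had the largest gap of a list of 13 expansion genes, of which 4 were higher and 1 lower (median 0.22). The share higher in this list was near the 28% over all genes tested, and the share lower was under the 27.9%. It ran from 124 to 396 CPM (median 236) in NZO and from 4.48 to 13.1 CPM (median 8.79) in WSB, with no overlap and a fold change of 4.899 ± 0.65 (adjusted p = 6.67e-09); it shares reads with a near-identical sequence, so its count is uncertain. NZO lay inside the other strain means here, and WSB below the lowest of them, 38.3 CPM in Cast. Bmp3 (3.06 ± 0.32), Npr3 (1.97 ± 0.47) and Trp53inp2 (1.29 ± 0.28) were higher in NZO as well, Npr3 with 2.65 when WSB replicate 7 was left out. The growth hormone receptor Ghr was lower (-0.703 ± 0.20), and Cav1, Cav2, Vldlr, Peg3 and Igf1 were not called.

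Fat cell identity genes were lower in NZO. Of 20 tested, 15 were called lower and none higher (median -0.83), and in 8 every NZO library was below every WSB library. The members with the largest gaps were Cidea (-3.28 ± 0.88), a lipid droplet protein rich in brown fat, Car3 (-2.39 ± 0.40), a carbonic anhydrase abundant in fat cells, and Adrb3 (-2.22 ± 0.41), the receptor through which noradrenaline starts lipolysis. Pparg, the nuclear receptor that drives fat cell formation, was lower by less (-0.703 ± 0.16), as were Plin1 (-0.75 ± 0.21) and Fabp4 (-0.65 ± 0.16). Lpl, Cidec, Plin4 and Cd36 were not called. Among the 15 called, both strains lay beyond the other 6 on opposite sides in 8.

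**Figure D3:**
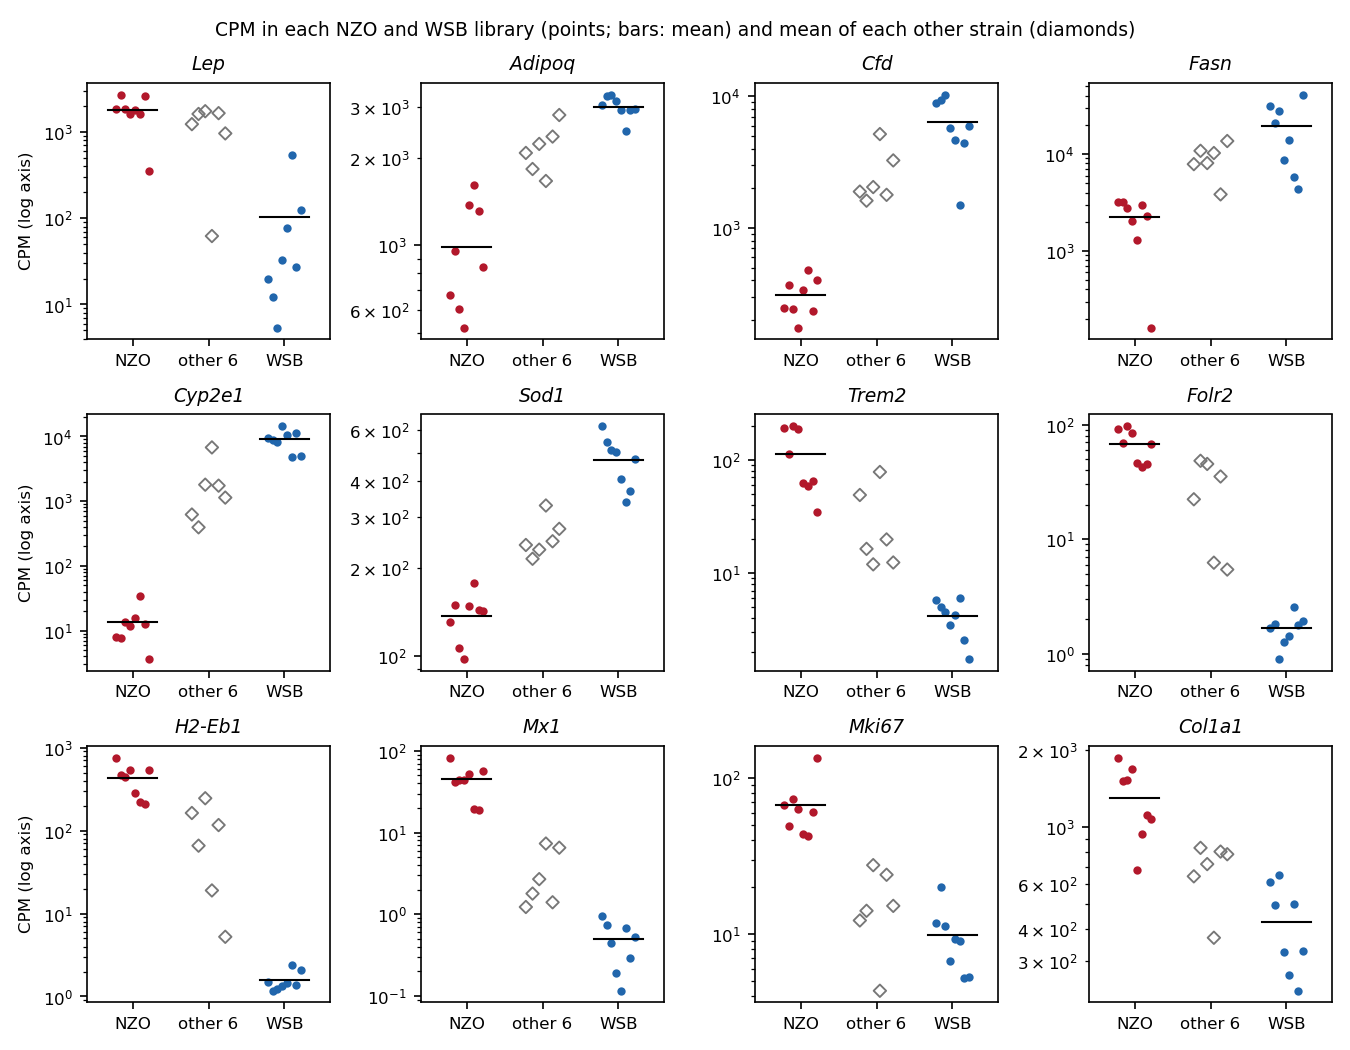
Scaled CPM on log axes for 12 genes in each NZO (red) and WSB (blue) library, with the strain mean as a bar, and the mean of each of the other 6 strains as grey diamonds. NZO and WSB libraries do not overlap except in the Lep panel, and in most panels the other strains lie between them.

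Enzymes that build fatty acids were lower in NZO, nearly without exception. Of 24 lipogenesis genes, 19 were called lower and none higher, with a median of -1.76, and in 11 of them the libraries did not overlap. Fatty acid synthase (Fasn) ran from 161 to 3188 CPM (median 2543) in NZO and from 4396 to 41054 CPM (median 17539) in WSB. The lowest NZO library, replicate 8, lay far under the others, and the highest NZO library was still under the lowest WSB library (-3.103 ± 0.55, adjusted p = 2.84e-06). Scd1, the desaturase that makes oleate, ran from 17339 to 56418 CPM (median 32047) against from 103590.0 to 131460.0 CPM (median 116720.0) (-1.78 ± 0.19, adjusted p = 1.11e-11). Thrsp, a nuclear activator of lipogenesis, ran from 13.5 to 102 CPM (median 62.5) against from 542 to 3282 CPM (median 1206), the largest fold change of the list (-4.51 ± 0.59, adjusted p = 4.83e-09).

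Acacb, the acetyl-CoA carboxylase of the mitochondrial surface, ran from 94.5 to 263 CPM (median 145) in NZO and from 800.2 to 3437 CPM (median 2124) in WSB, with a fold change of -3.62 ± 0.43 (adjusted p = 4.1e-10). Fads1, which desaturates polyunsaturated fatty acids, had a narrow spread in NZO, running from 53.6 to 71.1 CPM (median 63.7) against from 223 to 372 CPM (median 333), and gave the smallest adjusted p of the list (-2.35 ± 0.18, adjusted p = 1.67e-16). Elovl6 (-4.23 ± 0.86), Acaca (-3.22 ± 0.53), Me1 (-2.67 ± 0.47), Acly (-2.47 ± 0.61) and the 2 transcription factors Mlxipl (-1.74 ± 0.36) and Srebf1 (-1.05 ± 0.20) were lower too. Scd2, Pgd, G6pdx, Mlx and Mid1ip1 were not called, so the pentose phosphate enzymes that supply NADPH stayed outside the calls. NZO lay below and WSB above the other 6 strain means in 11 of the 19 genes, and the mean over the list, on the log2 CPM scale, was 6.99 in NZO and 8.72 in WSB against 7.64 (NOD) to 8.35 (PWK) elsewhere.

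Triglyceride synthesis genes were lower as well. Of 17 triglyceride synthesis genes, 12 were lower and 2 higher in NZO (median -0.998). The acyltransferases Agpat2 (-1.56 ± 0.33), Gpam (-1.52 ± 0.26) and Dgat1 (-1.37 ± 0.19) were lower, while Dgat2 was not called (0.29 ± 0.32). The monoacylglycerol acyltransferases moved apart, with Mogat1 lower (-2.98 ± 0.29) and Mogat2 higher (1.95 ± 0.32). Pck1, which supplies glycerol phosphate in fat, ran from 699 to 3021 CPM (median 1662) in NZO and from 2656 to 4990.5 CPM (median 3560.2) in WSB, so the strains overlapped (-1.17 ± 0.35, adjusted p = 0.00348).

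Lipolysis genes were also lower: 11 of 19 in NZO and none higher (median -0.82). Pnpla2, the lipase that takes the first fatty acid off triglyceride, ran from 751 to 1551 CPM (median 1308) in NZO and from 2712 to 4737 CPM (median 3842) in WSB with no overlap (-1.65 ± 0.20, adjusted p = 5.79e-10). Adrb3 ran from 39.4 to 427 CPM (median 96.1) against from 495 to 1104 CPM (median 635), again without overlap (-2.22 ± 0.41, adjusted p = 6.55e-06). The brakes of lipolysis Hcar2 (-2.08 ± 0.30), the niacin receptor, and Pde3b (-1.74 ± 0.22), which breaks down cyclic AMP under insulin, were lower as well. Mgll, G0s2 and Adrb1 were not called. NZO and WSB lay beyond the other 6 strain means on opposite sides in 6 of the 14 called triglyceride genes and in 7 of the 11 called lipolysis genes.

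Fatty acid oxidation, which breaks fatty acids down in mitochondria and peroxisomes, was lower in NZO in 25 of 28 genes, with 1 higher (median -1.30). Ehhadh, a peroxisomal enzyme, ran from 23.04 to 78.5 CPM (median 34.6) in NZO and from 102 to 671 CPM (median 258) in WSB (-2.91 ± 0.43, adjusted p = 6.54e-08). Acadl, the long-chain acyl-CoA dehydrogenase, ran from 117 to 225 CPM (median 161) against from 294 to 1259.5 CPM (median 648) (-2.08 ± 0.32, adjusted p = 1.67e-07). Neither overlapped, and NZO was below the lowest other strain mean in both. The exception was Cpt1a, the form of the carnitine shuttle enzyme most abundant in liver, which was higher in NZO, running from 169 to 232 CPM (median 199) against from 52.9 to 139 CPM (median 80.3). Its libraries did not overlap either, and NZO lay above and WSB below all other strain means (1.21 ± 0.18, adjusted p = 1.51e-07). Cpt1b, the muscle and brown fat form, was not called (-1.12 ± 0.67).

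Respiratory chain genes were lower in NZO almost throughout. All 38 nuclear genes of complexes II to V tested were lower in NZO (median -1.08), as were 28 of 30 nuclear genes of complex I (median -1.11) and all 13 genes encoded in mitochondrial DNA (median -1.50). Sdha, the flavoprotein of complex II, ran from 234 to 404 CPM (median 309.6) in NZO and from 469 to 1297 CPM (median 882) in WSB (-1.52 ± 0.25, adjusted p = 9.14e-07). Of the mitochondrial genes, mt-Cytb of complex III ran from 3172 to 6173 CPM (median 5061) against from 8438 to 24243 CPM (median 15212), with no overlap (-1.68 ± 0.31, adjusted p = 8.07e-06). Of the 13 mitochondrial genes, 9 share reads with other sequences, so these counts are less certain. The sizes differed across subunits, from -1.52 ± 0.25 in Sdha to -0.35 ± 0.12 in Atp5g1 for complexes II to V. Ndufs4 and Ndufb3 were the complex I genes not called. Both strains lay beyond the other 6 in 15 of the 28 called complex I genes and 24 of the 38 others.

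The citric acid cycle and the breakdown of branched-chain amino acids, which feed these chains, were lower in 32 of 33 genes (median -1.42), with libraries apart in 23. Bcat2, which takes the amino group off leucine, isoleucine and valine, ran from 51.5 to 101 CPM (median 65.95) in NZO and from 146 to 439.7 CPM (median 272) in WSB (-2.05 ± 0.20, adjusted p = 4.58e-13). Dbt, a core subunit of the dehydrogenase that follows, ran from 33.3 to 65.1 CPM (median 50.3) against from 91.97 to 182 CPM (median 154) (-1.56 ± 0.16, adjusted p = 2.58e-12). Pcx, which refills the cycle from pyruvate and is abundant in fat, ran from 364 to 866 CPM (median 615) against from 1440.2 to 3899 CPM (median 3068) (-2.22 ± 0.29, adjusted p = 2.81e-09). None of the 3 overlapped. Idh2 was the member not called (-0.06 ± 0.14).

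**Figure D4:**
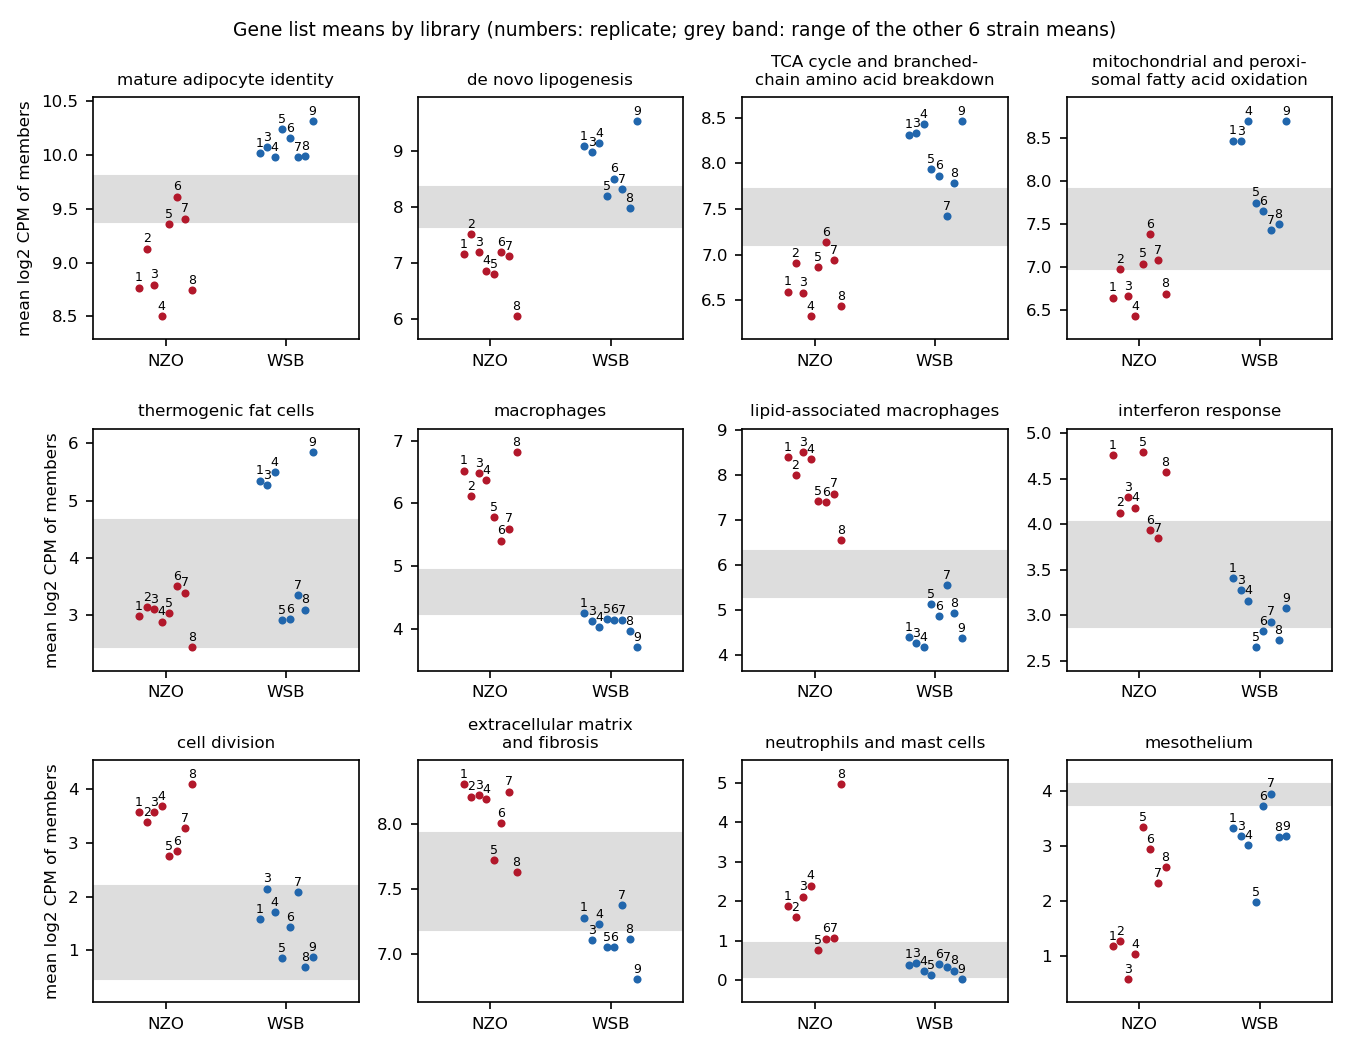
Mean log2 CPM over the tested members of 12 lists in each NZO (red) and WSB (blue) library, numbered by replicate, with the range of the other 6 strain means in grey. WSB replicates 1, 3, 4 and 9 lie above WSB replicates 5 to 8 in the oxidation, citric acid cycle and thermogenic panels, and NZO replicate 8 stands alone in the neutrophil and mast cell panel.

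Insulin signalling genes were lower in 15 of 25 and higher in 4 (median -0.59). Irs1, the docking protein under the insulin receptor, ran from 24.4 to 46.1 CPM (median 34.1) in NZO and from 97.8 to 225 CPM (median 147) in WSB (-2.11 ± 0.31, adjusted p = 6.23e-08). Slc2a4, the insulin-driven glucose transporter GLUT4, ran from 48.4 to 115 CPM (median 80.2) against from 188 to 451 CPM (median 264) (-1.74 ± 0.26, adjusted p = 7.12e-08). Neither overlapped, although Irs1 shares reads. Insr (-0.99 ± 0.14), Irs2 (-1.37 ± 0.20) and Akt2 (-0.68 ± 0.12) were lower, and 2 known brakes on the receptor, Ptpn1 (0.95 ± 0.13) and Grb14 (1.41 ± 0.30), were higher. Slc2a1, the insulin-independent transporter, was not called (0.13 ± 0.19).

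Enzymes against peroxides and electrophiles were lower in 22 of 31 and higher in 2 (median -0.64). Gsta3, a glutathione transferase, ran from 3.34 to 20.4 CPM (median 16.4) in NZO and from 70.8 to 228 CPM (median 136) in WSB (-3.36 ± 0.29, adjusted p = 1.52e-14). Sod1, the cytosolic superoxide dismutase, ran from 97.2 to 178 CPM (median 143) against from 338 to 618 CPM (median 491) (-1.78 ± 0.19, adjusted p = 2.04e-11), and the secreted form Sod3 was higher in NZO (1.27 ± 0.22), as was the haem oxygenase Hmox1 (1.08 ± 0.37). Nnt, the mitochondrial transhydrogenase known to carry a deletion in some B6 mice, ran from 18.4 to 28.1 CPM (median 19.9) against from 41.04 to 62.5 CPM (median 47.6) (-1.23 ± 0.15, adjusted p = 5.64e-10). For Nnt, NZO lay under every other strain mean, the lowest being 23.8 CPM in B6.

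The widest metabolic gap was in Cyp2e1, the cytochrome P450 that oxidises ethanol, acetone and fatty acids, at chr7:140763739-140774975. It ran from 3.61 to 34.5 CPM (median 12.1) in NZO and from 4896 to 14446 CPM (median 9249) in WSB. The highest NZO library was far under the lowest WSB library, and the other strain means lay between, from 395 CPM in AJ to 6779 CPM in Cast. The fold change was -9.42 ± 0.59 (adjusted p = 1.21e-19). Of 21 P450 and steroid genes, 11 were lower and 4 higher (median -0.55). Hsd11b1, which regenerates active glucocorticoid, ran from 23.4 to 53.1 CPM (median 35.1) against from 120.1 to 425 CPM (median 289) (-3.04 ± 0.31, adjusted p = 2.67e-12), and Por, the reductase that serves the P450s, was lower (-1.35 ± 0.14).

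Thermogenic fat cell genes were lower in NZO in 14 of 19 and higher in 1 (median -2.31), but libraries overlapped in all but 2 of them. Ucp1 ran from 26.9 to 73.5 CPM (median 57.7) in NZO and from 4.001 to 1872 CPM (median 331) in WSB, so that WSB spanned NZO on both sides (-3.23 ± 1.38, adjusted p = 0.0426). Its level in WSB was 651 to 1872 CPM in replicates 1, 3, 4 and 9, where Xist and the posterior Hox genes were high, and 4.001 to 10.5 CPM in the other 4, while NZO stayed at or under 73.5 CPM throughout. The Ucp1 call was lost when any of 12 single libraries was left out, with fold changes of -3.30 to -2.53. Elovl3 (-5.94 ± 1.09), Dio2 (-2.31 ± 0.83), Cox8b (-2.33 ± 0.68) and Cox7a1 (-1.92 ± 0.78) were lower with the same spread, and without WSB replicates 1 and 9 there were 8 thermogenic genes lower.

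Ppargc1a, a coactivator of mitochondrial genes, was the one lower member without overlap, running from 3.81 to 7.14 CPM (median 5.08) in NZO and from 10.3 to 47.2 CPM (median 28.7) in WSB (-2.53 ± 0.40, adjusted p = 3.3e-07). The exception in the other direction was Ckb, a creatine kinase, running from 55.5 to 198 CPM (median 104) against from 17.8 to 46.6 CPM (median 30.5). For Ckb, NZO lay above and WSB below every other strain mean (1.94 ± 0.34, adjusted p = 2.33e-06).

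Macrophage genes were higher in NZO. Of 27 tested, 23 were called higher and 1 lower (median 2.11), and in 21 every NZO library lay above every WSB library. Adgre1, which encodes the surface protein F4/80, ran from 123 to 506 CPM (median 325) in NZO and from 25.2 to 44.1 CPM (median 35.8) in WSB (3.15 ± 0.27, adjusted p = 1.69e-14). Folr2, a folate receptor of tissue-resident macrophages, ran from 42.3 to 96.8 CPM (median 68.3) against from 0.895 to 2.58 CPM (median 1.72) (5.31 ± 0.21, adjusted p = 1.93e-28). Its range within each strain was narrow beside the gap, and WSB lay below even the lowest of the other strain means, 5.43 CPM in PWK. Cd68 (3.28 ± 0.37), Csf1r (1.52 ± 0.15) and the complement subunits C1qa (1.86 ± 0.17), C1qb (2.36 ± 0.21) and C1qc (2.66 ± 0.19) were higher too.

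The exception was Cd163, the haemoglobin scavenger receptor, which was lower in NZO. It ran from 17.8 to 119.8 CPM (median 37.1) in NZO and from 99.8 to 184 CPM (median 135) in WSB, with the strains overlapping at one end (-1.66 ± 0.28, adjusted p = 1.58e-06). NZO lay under every other strain mean, the lowest of which was 86.7 CPM in 129. Other markers of resident macrophages were divided: Mrc1 (1.45 ± 0.18) and Lyve1 (0.79 ± 0.27) were higher, and Timd4 (0.46 ± 0.29) and Mertk (0.08 ± 0.22) were not called.

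Genes of lipid-associated macrophages were higher in 17 of 21 and lower in 1 (median 3.09). Trem2, a lipid-sensing receptor that marks these cells, ran from 34.9 to 199 CPM (median 88.9) in NZO and from 1.73 to 6.04 CPM (median 4.42) in WSB (4.77 ± 0.56, adjusted p = 2.82e-10). Gpnmb, a lysosomal glycoprotein, ran from 149.5 to 1269.6 CPM (median 477) against from 5.68 to 29.1 CPM (median 10.5) (5.58 ± 0.79, adjusted p = 3.26e-08). Spp1, which encodes osteopontin, ran from 25.98 to 175 CPM (median 69.5) against from 0 to 1.4 CPM (median 0.16) and was next to absent from WSB (7.87 ± 1.12, adjusted p = 3.06e-08). In all 3 genes the libraries did not overlap and NZO lay above each of the other 6 strain means. The lysosomal genes Ctss (4.02 ± 0.40), Ctsk (3.302 ± 0.27) and Lipa (1.802 ± 0.21) and the lipid droplet gene Plin2 (1.602 ± 0.20) were higher. Lpl, Apoe and Fabp5, which fat cells or other cells also make, were not called, and Cd63 was lower by a little (-0.33 ± 0.12), a call that 2 single NZO libraries decide (replicates 5 and 6, -0.28 and -0.27 without each).

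Chemokines and cytokines were higher in 29 of 36 and lower in none (median 1.86). Ccl8, a chemokine that draws monocytes, ran from 5.73 to 135 CPM (median 14.4) in NZO and from 0.379 to 1.4 CPM (median 0.581) in WSB (5.27 ± 0.60, adjusted p = 8.19e-11) and had a fold change of 4.25 without NZO replicate 8, which held its highest value. Tnf was read at low level, running from 1.24 to 4.27 CPM (median 2.12) against from 0 to 0.468 CPM (median 0.273), yet with no overlap (3.08 ± 0.46, adjusted p = 1.25e-07). Ccl2 (3.26 ± 0.73), Ccl3 (4.95 ± 0.83), Ccl4 (3.88 ± 0.65) and the anti-inflammatory Il10 (4.49 ± 0.84) and Il1rn (4.75 ± 0.74) were higher as well. Il6, Il18, Il33 and Cxcl12 were not called. Of the 29 genes, NZO alone lay above the other 6 strains in 15.

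T and NK cell genes were higher in 24 of 32 and lower in none (median 1.32). Ncr1, the natural killer receptor NKp46, ran from 3.85 to 8.24 CPM (median 5.47) in NZO and from 0.0879 to 0.535 CPM (median 0.275) in WSB (4.32 ± 0.40, adjusted p = 1.75e-13). Cd4 ran from 1.81 to 10.9 CPM (median 6.8) against from 0.743 to 1.54 CPM (median 1.04) (2.47 ± 0.34, adjusted p = 1.99e-08). Neither overlapped. Gzma (3.100 ± 0.44), Gzmb (3.23 ± 0.45) and Prf1 (2.76 ± 0.40), which carry out killing, and Il7r (3.36 ± 0.46) were higher, but the chains of the T cell receptor complex Cd3d (0.19 ± 0.35), Cd3e (-0.04 ± 0.32) and Cd3g (0.06 ± 0.34) were not called. In 20 of the 24 higher genes NZO alone lay outside the other 6 strain means.

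B and plasma cell genes were higher in 19 of 21 and lower in 1 (median 3.34). Ighm, the heavy chain of IgM, ran from 257 to 2522 CPM (median 324) in NZO and from 8.27 to 58.5 CPM (median 13.4) in WSB (4.66 ± 0.55, adjusted p = 2.67e-10). Cd79a, a signalling chain of the B cell receptor, ran from 2.22 to 34.9 CPM (median 5.14) against from 0.247 to 1.02 CPM (median 0.512) (3.94 ± 0.48, adjusted p = 5.98e-10). NZO replicate 8 held the top value of both, and without it the fold changes were 3.81 and 3.12. Even so, the remaining NZO libraries lay above every WSB library in both genes. The exception was Xbp1 (-0.74 ± 0.16), a regulator of secretion that many cell types make.

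Dendritic cell genes were higher in 10 of 13 and lower in 2 (median 1.16). Irf8, a transcription factor of dendritic cells and monocytes, ran from 33.8 to 82 CPM (median 66.1) in NZO and from 5.71 to 10.6 CPM (median 7) in WSB (3.02 ± 0.22, adjusted p = 2.04e-17). Markers of cross-presenting cells, Xcr1 (1.98 ± 0.31) and Clec9a (1.16 ± 0.18), were higher, and Cd209a, a marker of monocyte-derived cells, was lower (-1.17 ± 0.30).

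Neutrophil and mast cell genes were higher in 17 of 19 (median 3.27) and lower in none, with NZO replicate 8 far above the rest. The granule gene Ngp ran from 0.25 to 560.3 CPM (median 0.917) in NZO and from 0 to 0.468 CPM (median 0.262) in WSB, with overlap (8.06 ± 1.43, adjusted p = 3.23e-06). Without NZO replicate 8, its fold change was 1.95 and not called, and 10 members of the list were called. The mast cell genes remained called without it. Cpa3, a granule protease, ran from 4.2 to 35.3 CPM (median 13.2) against from 0.854 to 1.73 CPM (median 0.941) with no overlap (4.08 ± 0.35, adjusted p = 2.34e-14), and Cma1 (3.49 ± 0.34), Tpsb2 (3.71 ± 0.31) and Mcpt4 (3.27 ± 0.39) were apart in the same way.

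Antigen presentation genes were higher in 19 of 25 and lower in 1 (median 0.82), though 12 of the 25 share reads. H2-Eb1, a beta chain of MHC class II at chr17:34305877-34316199, ran from 211 to 755 CPM (median 456) in NZO and from 1.17 to 2.43 CPM (median 1.41) in WSB. The groups lay far apart at their nearest libraries (8.09 ± 0.41, adjusted p = 9.84e-24). The strain means elsewhere ran from 5.24 CPM in PWK to 245 CPM in B6. The class II pathway genes H2-Ab1, H2-Aa and Cd74 differed far less. H2-Ab1 ran from 91.5 to 300.1 CPM (median 185) against from 32.8 to 70.3 CPM (median 55.1) (1.69 ± 0.27, adjusted p = 5.44e-07). H2-Aa (1.504 ± 0.26) and Cd74 (1.900 ± 0.26) were near it. Ciita, the master switch of class II genes, ran from 16.1 to 39.3 CPM (median 24.8) against from 2.7 to 7.26 CPM (median 5.02) (2.35 ± 0.28, adjusted p = 3.88e-10). Among class I genes, H2-D1 was higher (3.28 ± 0.13) and H2-K1 was not called (0.18 ± 0.16), and both share reads.

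Interferon response genes were higher in 38 of 46 and lower in 2 (median 1.26), with every NZO library above every WSB library in 30. Mx1, a GTPase that blocks influenza viruses, at chr16:97447035-97462907, ran from 18.8 to 82.7 CPM (median 43.96) in NZO and from 0.115 to 0.937 CPM (median 0.487) in WSB (6.51 ± 0.70, adjusted p = 2.04e-11). NZO was above each of the other strain means, the highest of which was 7.33 CPM in Cast. Its neighbour Mx2 went the other way and was near absent from NZO, running from 0 to 0.194 CPM (median 0.0512) against from 0.688 to 1.73 CPM (median 1.05) (-4.16 ± 0.63, adjusted p = 1.33e-07). Rsad2, the antiviral enzyme viperin, ran from 19.3 to 40.8 CPM (median 28.8) against from 1.52 to 5.46 CPM (median 3.34) (3.13 ± 0.36, adjusted p = 1.55e-10). Gbp3, a guanylate-binding protein, ran from 21.7 to 61.7 CPM (median 27.8) against from 6.33 to 10.7 CPM (median 8.3) (1.97 ± 0.23, adjusted p = 1.34e-10). Irgm2, an immunity-related GTPase that shares reads, ran from 23.8 to 81.04 CPM (median 34.7) against from 8.62 to 19.5 CPM (median 14.3) (1.56 ± 0.24, adjusted p = 3.01e-07). Isg15 (2.36 ± 0.48), Oas3 (3.23 ± 0.65) and Oasl1 (3.69 ± 0.51) were higher as well. NZO alone lay outside the other 6 strains in 22 of the 40 called genes.

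The promoters of 3 of these genes are shown. They are the called members with the smallest adjusted p whose window holds the interferon-stimulated response element, so holding it was part of the choice. This element is a site through which interferon acts, searched as GAAA, any 2 bases and GAAA on both strands. The windows run from 250 bases before to 50 bases after the start of the gene (RefSeq, GRCm38.p6), 5′ to 3′ along the gene, with the matching letters in capitals (TTTC, 2 bases and TTTC are the same site on the other strand). The windows are Gbp3 at chr3:142559794-142560093 on the plus strand, Rsad2 at chr12:26456403-26456702 on the minus strand and Irgm2 at chr11:58214727-58215026 on the plus strand.
Gbp3: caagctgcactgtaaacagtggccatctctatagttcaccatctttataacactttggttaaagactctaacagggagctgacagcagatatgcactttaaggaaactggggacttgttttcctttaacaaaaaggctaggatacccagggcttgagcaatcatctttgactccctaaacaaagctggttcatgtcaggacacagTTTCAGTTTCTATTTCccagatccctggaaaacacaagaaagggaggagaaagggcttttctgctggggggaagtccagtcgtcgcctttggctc
Rsad2: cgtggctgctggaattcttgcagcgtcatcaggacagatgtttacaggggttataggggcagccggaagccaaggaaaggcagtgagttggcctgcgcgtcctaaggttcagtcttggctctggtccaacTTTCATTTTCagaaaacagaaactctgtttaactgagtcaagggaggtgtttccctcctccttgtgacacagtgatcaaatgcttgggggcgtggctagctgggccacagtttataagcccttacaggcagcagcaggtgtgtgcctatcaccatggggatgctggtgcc
Irgm2: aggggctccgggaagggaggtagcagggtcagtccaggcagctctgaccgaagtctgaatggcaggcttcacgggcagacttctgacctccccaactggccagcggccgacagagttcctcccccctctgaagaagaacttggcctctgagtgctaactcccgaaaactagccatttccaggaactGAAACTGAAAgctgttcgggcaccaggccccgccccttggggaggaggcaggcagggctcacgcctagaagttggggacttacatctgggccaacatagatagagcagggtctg
Gbp3 holds 2 overlapping matches, and the first base of the match in Rsad2 and Irgm2 lies at -120 and -64 from the start. Of 35 interferon genes with a window, 24 held the motif (68.6%), against 1079 of all 27025 genes with one (3.99%), and 21 of the 31 members called higher held it. A match is a description of these letters and says nothing of binding in these samples.

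Cell division genes were higher in NZO in every case. All 31 tested were called higher (median 2.03), and 23 did not overlap. Mki67, the proliferation marker Ki-67, ran from 42.8 to 135 CPM (median 61.8) in NZO and from 5.22 to 20.1 CPM (median 9.2) in WSB (2.77 ± 0.38, adjusted p = 1.82e-08). Mcm6 and Mcm2, subunits of the helicase that opens DNA for replication, ran from 31.9 to 53.7 CPM (median 46.7) against from 6.3 to 10.6 CPM (median 9.15) (2.29 ± 0.20, adjusted p = 4.57e-14) and from 9.23 to 22.5 CPM (median 16.9) against from 3.74 to 7.41 CPM (median 5.56) (1.54 ± 0.21, adjusted p = 9.09e-09). The smallest difference was Mcm3 (0.796 ± 0.15). NZO stood out from the other strains here: in 29 of the 31 genes NZO alone lay outside their range, and WSB was inside it. The list mean, on the log2 CPM scale, was 3.40 in NZO and 1.42 in WSB against 0.46 (Cast) to 2.20 (B6). Which cells divide was not tested.

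The promoter of Mcm2 is shown as an example that holds both motifs searched in these genes, each in capitals. They are the CCAAT box (CCAAT, or ATTGG on the other strand) and the cell cycle homology region, searched as TTTGAA on both strands. The window is at chr6:88898731-88899030 on the minus strand (RefSeq, GRCm38.p6).
Mcm2: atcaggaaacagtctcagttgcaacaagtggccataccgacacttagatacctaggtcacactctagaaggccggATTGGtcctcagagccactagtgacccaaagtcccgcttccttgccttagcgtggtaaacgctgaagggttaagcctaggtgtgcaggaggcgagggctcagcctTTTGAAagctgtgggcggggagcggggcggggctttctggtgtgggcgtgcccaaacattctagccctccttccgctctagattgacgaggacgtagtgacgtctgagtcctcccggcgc
Of 26 cell division genes with a window, 23 held CCAAT (88.5%), against 11096 of 27025 genes (41.1%), and 17 held TTTGAA (65.4%), against 5466 (20.2%). The windows of Mcm3, Mcm5 and Mcm6 held CCAAT and no TTTGAA. Short motifs such as these occur in many promoters, and no overlap with other motifs was sought.

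Matrix genes were higher in 28 of 38 and lower in 3 (median 0.95), although only 7 of the higher members were free of overlap. Col1a1, the main chain of type I collagen, ran from 681 to 1866 CPM (median 1316) in NZO and from 230.4 to 652 CPM (median 413) in WSB, with the strains just apart (1.61 ± 0.29, adjusted p = 5.65e-06). Tnc, the wound matrix protein tenascin-C, ran from 25.3 to 60.6 CPM (median 36.3) against from 8.41 to 12.5 CPM (median 10.01) (1.93 ± 0.20, adjusted p = 4.04e-12). The chains of collagen VI, which is rich in obese fat, were higher (Col6a1 1.61 ± 0.22, Col6a2 1.75 ± 0.23, Col6a3 1.15 ± 0.30), as were Timp1 (3.28 ± 0.66) and Mmp3 (5.06 ± 1.09). The contractile genes Acta2 (-1.31 ± 0.43) and Tagln (-1.17 ± 0.48) and the inhibitor Timp3 (-0.78 ± 0.17) were lower, and Dcn, Eln and Thbs1 were not called.

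Progenitor and vessel genes went both ways, with a smaller share lower than the 27.9% over all genes tested. Of 21 progenitor genes, 7 were higher and 3 lower (median 0.32), with 4 higher when WSB replicate 8 was left out. Pdgfrb (1.09 ± 0.15) and Fap (1.16 ± 0.24) were higher, Fmo2 lower (-1.21 ± 0.27), and Pi16, Dpp4 and Cd34 were not called. Of 26 vessel genes, 10 were higher and 4 lower (median 0.19). The endothelial markers Pecam1, Cdh5, Kdr and Flt1 were not called. Vegfa, the main growth factor of vessels, ran from 95.7 to 154 CPM (median 127) in NZO and from 154 to 334 CPM (median 287) in WSB, touching at one library of each (-1.13 ± 0.16, adjusted p = 2.49e-08). Angpt1 (-1.51 ± 0.29) and Vegfb (-1.08 ± 0.22) were lower with it. Hif1a, the oxygen-regulated factor known to drive Vegfa, went the other way, running from 121 to 176 CPM (median 154) against from 72.5 to 92.7 CPM (median 83.1) (0.87 ± 0.15, adjusted p = 3.22e-06).

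Mesothelial genes, which mark the lining of visceral depots, were lower in 9 of 16 and higher in none (median -1.12). Wt1, its transcription factor, ran from 3.84 to 11.2 CPM (median 7.04) in NZO and from 13.9 to 24.5 CPM (median 17.3) in WSB (-1.29 ± 0.31, adjusted p = 0.00033), and it was the one member free of overlap. For all 9 called genes NZO lay under the other 6 strain means, and WSB itself had a list mean (3.18 on the log2 CPM scale) under the lowest of them (3.73 in PWK). The count was 15 without NZO replicate 5 and 4 without the 3 libraries with germ cell transcripts, so it rests on few libraries.

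Several smaller programmes were mixed. Of 23 cholesterol genes, 8 were higher and 5 lower (median 0.01), with 5 higher without NZO replicate 2. Soat1, which esterifies cholesterol for storage, ran from 53.5 to 151 CPM (median 73.8) in NZO and from 8.9 to 30.9 CPM (median 15.3) in WSB with no overlap (2.49 ± 0.28, adjusted p = 6.18e-11), and Stard4 (1.82 ± 0.16) and Abcg1 (0.84 ± 0.26) were higher, while Nr1h3, the oxysterol receptor LXR alpha, was lower (-0.71 ± 0.10). Of 26 complement and clotting genes, 10 were higher and 7 lower (median 0.16). C3ar1, the receptor for the C3a fragment, ran from 80.02 to 338 CPM (median 167) against from 10.4 to 22.5 CPM (median 18.4) (3.498 ± 0.34, adjusted p = 1.38e-12), whereas C7 (-2.45 ± 0.92) and the clotting inhibitor Tfpi (-1.67 ± 0.14) were lower and C3 was not called (-0.57 ± 0.33).

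Of 19 clock genes, 7 were lower and 1 higher (median -0.34). Arntl (-0.89 ± 0.26), Per2 (-0.89 ± 0.36) and Cry1 (-1.36 ± 0.24) were lower and Bhlhe41 higher (1.02 ± 0.30), and the hour of collection is not in the labels. Of 19 glucocorticoid-responsive genes, 5 were lower and 1 higher (median -0.29), among them Zbtb16 (-1.52 ± 0.27) and Fkbp5 (-1.04 ± 0.42). Here the share lower was near the 27.9% over all genes tested, and the share higher was under the 28%. The unfolded protein and stress list, with 7 lower and 3 higher of 27 (median 0.05), stayed under the background share in both directions, Atf3 (2.33 ± 0.50) and Dnajb9 (-1.17 ± 0.21) being its widest gaps.

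Markers of tissues next to fat gave these values. Of 18 skeletal muscle genes, 15 were lower in NZO (median -4.89), and 3 without WSB replicates 1 and 9, which held the fast muscle transcripts. Of 19 liver genes, 7 were lower (median -2.10), 4 without WSB replicate 8. Of 14 nerve and Schwann cell genes, 7 were lower and 3 higher (median -0.65), with 4 lower without NZO replicate 2. Of 10 red blood cell genes 4 were higher (median 0.66), and of 6 genital tract genes 2 were lower and 1 higher. Of these, Ptgds was lower (-3.12 ± 1.35, adjusted p = 0.0453) only with WSB replicate 7, the library with germ cell and intestinal transcripts, and was at 0.24 without it. The part of these tissues in other results was not tested. Without all 7 such libraries the counts were 17 lipogenesis genes lower, 10 fat cell genes lower, 38 of complexes II to V lower, 21 macrophage genes higher and 29 cell division genes higher. That fit keeps only replicates 3, 4 and 5 of WSB. Of these, replicate 5 alone had low Xist, so the Xist split is no longer even between the strains.

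The genes with the widest gaps at a mean of at least 5 CPM, with no overlap, were a mixed group. On the high side in NZO were Tph2, which makes serotonin in neurons (11.12 ± 1.14), Ly6c1 (8.58 ± 0.45), Hist2h2aa2 (8.199 ± 0.74), H2-Eb1, Spp1, Itgad (7.32 ± 1.01), Cyp4f16 (7.04 ± 0.20), Brinp2, Saa3 (6.796 ± 1.03), Crtac1 (6.77 ± 0.79), Mx1 and Pgk1-rs7 (6.51 ± 0.91). Tph2 ran from 0.974 to 152 CPM (median 68.5) in NZO and from 0 to 0.0879 CPM (median 0) in WSB, with B6 the highest of the other strains at 12.2 CPM. Brinp2 ran from 3.41 to 27.3 CPM (median 20.3) against from 0.0288 to 0.511 CPM (median 0.118), and Crtac1, a matrix protein of cartilage, from 10.4 to 35.5 CPM (median 24.9) against from 0 to 0.83 CPM (median 0.107). NZO replicate 8 was the lowest NZO library for Tph2 and Brinp2 and the highest for Saa3, whose fold change without it was 3.90. Other gaps were wider when the WSB library with the highest value (for Tph2, the second highest) was left out: without WSB replicate 7 the fold change was 11.92 for Tph2, 8.80 for Spp1, 7.95 for Crtac1, 9.28 for Hist2h2aa2 and 9.70 for Itgad, and without WSB replicate 8 it was 9.23 for Ly6c1 and 8.40 for Pgk1-rs7. Hist2h2aa2, Itgad, Ly6c1, Cyp4f16 and Pgk1-rs7 share reads with near-identical sequences, so their counts are uncertain.

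Among those on the low side were Cyp2e1, Mup17 (-8.76 ± 1.70), Cyp2b10 (-6.44 ± 0.61), Cwc22 (-5.85 ± 0.14), Orm3 (-5.66 ± 0.48), Pde11a (-5.57 ± 1.11), Acsm3 (-5.52 ± 0.83), Eci3 (-5.395 ± 0.37), Agt, H2-Q10 (-5.05 ± 0.59) and Orm2 (-5.04 ± 0.56). Eci3, an isomerase of peroxisomal fatty acid oxidation, ran from 0.391 to 1.09 CPM (median 0.499) in NZO and from 12.98 to 36.9 CPM (median 23.3) in WSB, and Cyp2b10, a P450 induced by foreign compounds, from 0.113 to 0.466 CPM (median 0.249) against from 5.94 to 60.4 CPM (median 13.1). Cwc22, a splicing factor, was set apart by WSB: it ran from 15.4 to 23.01 CPM (median 19.8) in NZO and from 1002 to 1252 CPM (median 1128) in WSB, against at most 34.02 CPM in the other strain means (-5.85 ± 0.14, adjusted p = 1.65e-39). Cwc22 shares reads with near-identical copies. Mup17 was at -6.56 without WSB replicate 8, the library with hepatocyte transcripts. Pde11a and Acsm3 followed the Xist split in WSB, in opposite directions. Pde11a was at 17.6 to 28.04 CPM in WSB replicates 5 to 8, where Xist was low. It was at 0.703 to 1.21 CPM in replicates 1, 3, 4 and 9, against at most 0.588 CPM in NZO. The Pde11a gap was thus wide only where Xist was low. Acsm3 was at 9.897 to 43.85 CPM in WSB replicates 5 to 8. It was at 215 to 325 CPM in the other WSB libraries, against at most 6.85 CPM in NZO.

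Few genes were read in one strain and not in the other. The rule was at least 1 CPM in every library of one strain and at most 0.1 CPM in every library of the other. By it, 7 genes were present in NZO (0.0376%) and 3 in WSB (0.0161%). Mrap2, a partner of melanocortin receptors whose loss is known to cause obesity in mice, ran from 5.9 to 11.5 CPM (median 8.86) in NZO and from 0 to 0.0892 CPM (median 0.0282) in WSB, and the other strain means went from 0.0266 CPM in B6 to 5.18 CPM in Cast. Actn2, a muscle actinin, ran from 0 to 0.0481 CPM (median 0.0172) against from 3.98 to 15.3 CPM (median 7.49). Clec2h, a lectin, ran from 0 to 0.0588 CPM (median 0) against from 1.96 to 14.8 CPM (median 2.77), with its highest value in WSB replicate 7, the library with intestinal transcripts. The other NZO genes were Zfp738, Cml3, Zfp429, Gm10240 and Gm8923, which share reads, and A530053G22Rik, and the third WSB gene was Rbpsuh-rs3, which shares reads. The names of Gm10240, Gm8923 and A530053G22Rik were added after their values were seen.

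The gap between the strains was not the same at every level of Xist. A fit with log2 Xist as a covariate with its own slope in each strain, chosen after seeing the data, gave the difference at 400 CPM and at 1 CPM of Xist. The difference depended on Xist in 2471 of 18602 genes (13.3%), being more negative at 400 CPM in 1145 (6.16%) and more positive in 1326 (7.13%), and of 7152 genes called at both levels 170 had opposite signs. Ucp1 was not among these 170, since it was not called at both levels. Its fitted value changed sign, from -3.70 at 400 CPM to 1.30 at 1 CPM (difference -5.00 ± 1.08, adjusted p = 0.0015). Of the lists, fatty acid oxidation had 21 of 28 genes more negative at high Xist (median -1.89 against -0.71), mitochondrially encoded genes 10 of 13 (-1.90 against -0.87), the citric acid cycle and amino acid list 19 of 33 (-1.80 against -0.98), thermogenic genes 10 of 19 (-2.83 against -0.25) and mesothelial genes 10 of 16 (-2.15 against -0.57). The lipid-associated macrophage list had 10 of 21 more positive (3.53 against 2.09) and the macrophage list 6 of 27 (2.57 against 1.87).

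Among single genes, Acot2, a mitochondrial thioesterase, ran from 11.3 to 26.1 CPM (median 17.2) in NZO and from 20.5 to 84.8 CPM (median 44.2) in WSB, with a difference of -2.31 at high and -0.53 at low Xist (adjusted p of their difference 1.81e-05). The lipogenesis list had 5 of 24 more negative and the interferon list 2 of 46, and none of the 31 cell division genes, 21 B cell genes or 25 antigen presentation genes depended on Xist by this test, which does not show that they were alike. With Xist, the Y chromosome genes and the posterior Hox genes moving together, sex and body position cannot be told apart in these slopes. Other tissues' transcripts also followed the split in WSB. Fast muscle genes were high in replicates 1 and 9, where Xist was high. Germ cell, intestinal or hepatocyte genes were high in replicates 6, 7 and 8, where Xist was low. The slopes cannot tell the part of these tissues apart from the rest.

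**Figure D5:**
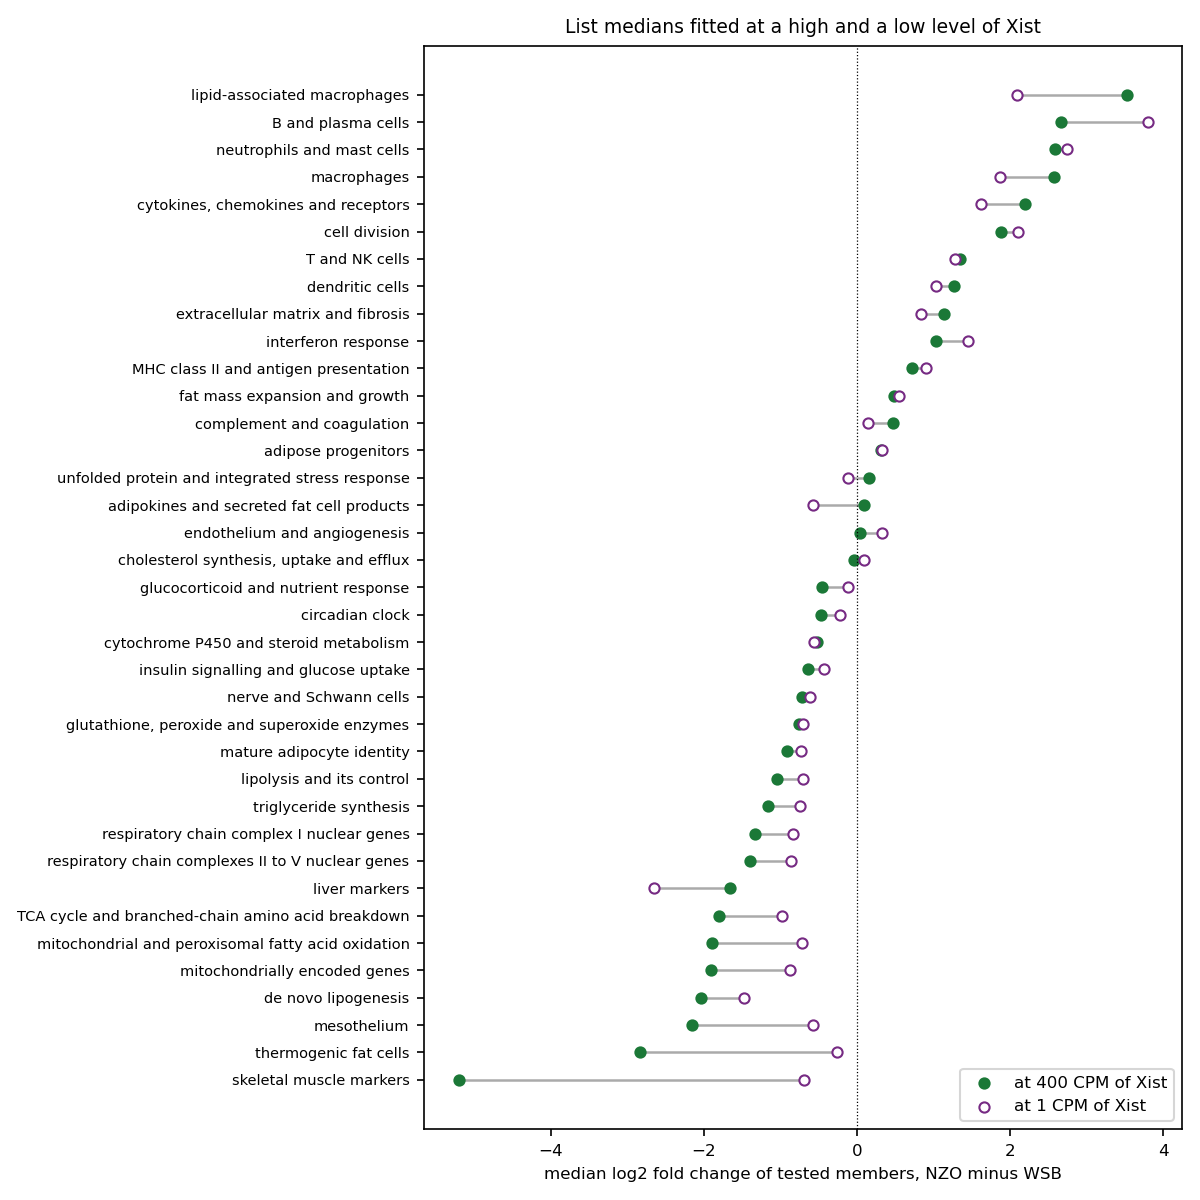
Median log2 fold change (NZO minus WSB) of the tested members of 37 lists (all but the red blood cell and genital tract lists), fitted at 400 CPM (filled) and at 1 CPM (open) of Xist and joined by a line. Of the lists drawn, the lines are longest for skeletal muscle, thermogenic, mesothelial and lipid-associated macrophage genes, and the immune lists stay to the right and the mitochondrial and lipogenic lists to the left of 0 at both levels.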

How the data were processed

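The libraries are of poly(A) RNA from adipose tissue with spike-in RNA mixed in, per the labels. The deposited values are expected counts per gene, for which a read that fits several genes was split between them; 21.1% of its values were not whole (tolerance 1e-06). A second table by the authors holds log2-scale values after a variance-stabilising transformation. The submitters' processing notes name GRCm38 and DESeq2; the aligner and counter are not given in the sources used here, and all strains were counted against this one assembly.

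Expected counts were rounded. Symbols were restored for 23 genes from the deposited gene identifiers, and the 46 identifiers with a symbol in common stayed separate. A gene is said to share reads where over 50% of its estimates were not whole. edgeR 4.0.16 in R 4.3.3 (filterByExpr by strain, trimmed mean of M values, robust quasi-likelihood fit) was fitted to all 61 libraries with 1 mean per strain, so that the other strains add to the estimate of spread, and NZO was tested against WSB with Benjamini-Hochberg adjustment at 0.05. Counts were also simulated for 18603 genes of this comparison, with 200 genes changed and the rest set equal between NZO and WSB. Of genes changed by 1 (log2) 73% were called, and of those changed by 0.5, 38%, while 5.13% of calls were on unchanged genes. In the data 55.9% of genes were called, so these shares may not carry over to them. Depth was 19851580 to 54488515 counts. Log2 CPM used a prior count of 2. Marker sums for single libraries are CPM of the library total.

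The strains compared, the 39 gene lists (911 symbols, 874 genes tested) and the rule for naming genes were chosen with earlier results of these data known. Named genes are the 12 largest changes in each direction without overlap and with a mean of at least 5 CPM, up to 4 members per list by adjusted p and 1 in the other direction, genes present in one strain only, a fixed set with Lep, Adipoq, Ucp1 and Cyp2e1 among it, and other list members where a list is described. Predicted genes and immune receptor segments were passed over in the first of these. Some genes that this rule selects are not reported here. Alternatives were size factors by relative log expression, no filter, a mean of at least 5 CPM, DESeq2 1.42.0, limma 3.58.1 on the log2 values the authors deposited, the 16 libraries alone, a replicate block, Xist as a covariate, genes that share reads left out, and each library left out. Promoter letters are from RefSeq, and the gene coordinates are from GENCODE on GRCm38.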

Additional observations from a re-analysis of the deposited data

Results flagged for a closer look

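A search for single libraries far from the other 7 of their strain covered 242 values (list means and genes named above with their range), and 29 were picked by Dixon's criterion, which chance meets in about 1 in 20 groups.

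NZO replicate 8 held most of them. Its list means, on the log2 CPM scale, were 6.15 for complement and coagulation (others 5.39 to 5.61), 6.75 for the glucocorticoid and nutrient response (5.42 to 5.94) and 4.98 for neutrophils and mast cells (0.76 to 2.39). In the same library, some fat cell transcripts were low: Lep was 355.1 CPM (others 1634 to 2720 CPM), Fasn 161 CPM (1297 to 3188), Thrsp 13.5 CPM (45.3 to 102), Gsta3 3.34 CPM (11.6 to 20.4), Ucp1 26.9 CPM (51.3 to 73.5) and mt-Cytb 3172 CPM (4541 to 6173). Others were not: Adipoq, at 845 CPM (519 to 1620.5), and the mean of the mature adipocyte list, at 8.74 (8.50 to 9.61), lay within the range of the other NZO libraries, and Pck1, at 2256 CPM (699 to 3021), Pnpla2, at 1430 CPM (751 to 1551), and Cfd, at 400.4 CPM (174 to 482), were below 1 NZO library only. Tph2, at 0.974 CPM (14.6 to 152), and Brinp2, at 3.41 CPM (16.2 to 27.3), were low there too. High there were Ngp at 560.3 CPM (0.25 to 2.48), Ighm at 2522 CPM (257 to 561), Cd79a at 34.9 CPM (2.22 to 7.41), Mki67 at 135 CPM (42.8 to 73.0) and Nnt at 28.1 CPM (18.4 to 21.2).

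WSB replicate 7, which held germ cell and intestinal transcripts, had a mean of 7.21 for fat mass expansion and growth (others 6.29 to 6.64) and of -0.67 for genital tract markers (-2.43 to -1.88). In that library Adipoq was 2482 CPM (others 2924 to 3316), Cfd 1501 CPM (4410.2 to 10305), Fads1 223 CPM (303 to 372), Dbt 92.0 CPM (145 to 182), Vegfa 154 CPM (252 to 334) and Clec2h 14.8 CPM (1.96 to 3.43).

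NZO replicate 4 had a mean of -0.56 for genital tract markers (others -3.14 to -1.97). Tnf was at 0 CPM in WSB replicate 4 (others 0.146 to 0.468) and H2-Ab1 was 32.8 CPM there (50.03 to 70.3). Ngp was at 0 CPM in WSB replicate 9 (others 0.144 to 0.468). Clec2h was 0.0588 CPM in NZO replicate 6, from 2 counts, and 0 in the other 7.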

How the results depend on the processing

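The number of genes called lay between 7300 (mean of at least 5 CPM) and 10741 (DESeq2), with 48.8% to 52.6% of the calls higher in NZO against 50% in the first fit, and the share of calls in each direction thus moved little. Calls of at least 2-fold were 2037 at a mean of at least 5 CPM, where fewer genes were tested, and 1951 with limma on the deposited values, a compressed scale. Non-overlapping genes were 7745 without the 7 libraries with other tissues' transcripts, where fewer libraries need to be apart. Genes present in 1 strain only were 3 with at least 5 CPM and 4 with at most 0.05 CPM.

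Counts of list members moved by over 1.5 times as follows, and where no construction is named the cause was not tested. At a mean of at least 5 CPM, which tests fewer genes, the count was 17 for cytokines, 2 for T and NK cells, 8 for B cells, 2 for dendritic cells, 5 for muscle and 2 for nerve. With limma it was 9 for thermogenic genes, 4 for liver, 5 for muscle and 4 for nerve. Without genes that share reads it was 4 for mitochondrially encoded genes, 11 for antigen presentation and 4 for liver. On the 16 libraries alone it was 9 for muscle. Without the germ cell libraries it was 4 for mesothelium and 4 for nerve, and without the muscle libraries 8 for thermogenic genes and 3 for muscle. Without all 7 libraries it was 8 for thermogenic genes, 7 for P450 genes, 9 for neutrophils and mast cells, 2 for mesothelium, 3 for liver, 3 for muscle and 4 for nerve. Without NZO replicate 8 and WSB replicate 7 it was 10 for neutrophils and mast cells. At 400 CPM of Xist it was 10 for neutrophils and mast cells, 6 for vessels, 15 for mesothelium, 8 for glucocorticoid genes, 4 for the stress list and 3 for liver. At 1 CPM it was 5 for thermogenic genes, 4 for cholesterol, 1 for mesothelium, 3 for glucocorticoid genes, 2 for muscle and 4 for nerve.

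Leaving out 1 library in turn gave counts of 4 to 8 for progenitors, 5 to 9 for cholesterol, 4 to 7 for liver, 7 to 15 for mesothelium, 4 to 7 for nerve, 10 to 17 for neutrophils and mast cells, 10 to 16 for thermogenic genes, 4 to 7 for glucocorticoid genes, 7 to 11 for vessels and 5 to 8 for the clock.

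The labels do not say whether shared replicate numbers pair the samples. Over 7 shared numbers the deviations correlated between -0.20 and 0.23, and 3 of 7 were best with their own number. The Xist split and other tissues' transcripts also enter these deviations, so the values cannot decide whether samples are paired. With the replicate number as a block, 8826 genes were called on the 16 libraries and 10431 on all 61. The block on 16 libraries gave 9 thermogenic, 10 neutrophil and mast cell, 4 liver and 5 muscle genes.

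Of 7007 values of 222 named genes, 6882 kept their side of the threshold and direction, 119 in 27 genes were no longer called, and 6 changed sign. Ucp1 became 0.40 with the block on 16 libraries, 0.59 with Xist as a covariate and 1.30 at 1 CPM of Xist. Ptgds became 0.40 without NZO replicate 8 and WSB replicate 7, 0.24 without WSB replicate 7 (-5.03 without NZO replicate 4) and 1.09 at 400 CPM of Xist. Genes set aside as low (2566) were not tested except in the fit without a filter.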
